A study of Mus musculus with 6 samples.

Results

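Interferon regulatory factors (IRFs) are a family of transcription factors, and 8 of their genes, Irf1, Irf2, Irf3, Irf4, Irf5, Irf7, Irf8 and Irf9, were followed here among the 16519 genes of the deposited count table. They were chosen by gene symbol, and all 8 passed the filter on low counts that left 12605 genes for testing. The cells were mouse bone marrow derived macrophages, a primary cell obtained by culturing marrow progenitors. The KO group held 3 libraries from mice with floxed alleles of Trmt61a and the LysM-Cre driver, and the WT group held 3 libraries from mice with the same floxed alleles and no Cre. Trmt61a codes for the catalytic part of the methyltransferase that places N1-methyladenosine (m1A) on tRNAs. LysM-Cre expresses the recombinase from the Lyz2 gene in myeloid cells, and only the KO group carried it, so that effects of the recombinase and of the loss of Trmt61a cannot be told apart. The labels name no stimulus, age or sex, nor is it stated if each library came from its own mouse, so the p-values rest on the variation among these libraries alone, and it may be technical.

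IRFs share an N-terminal DNA-binding domain that recognises repeats of GAAA, the core of the interferon-stimulated response element. Irf3 and Irf7 lie in the cytoplasm until kinases downstream of nucleic acid sensors phosphorylate them, after which they switch on type I interferon genes. Irf9 is the DNA-binding subunit of the complex that carries the type I interferon signal to the nucleus. Irf5 drives inflammatory cytokine genes after Toll-like receptor signalling, Irf1 and Irf2 activate and antagonise transcription at shared sites, and Irf4 and Irf8 are restricted mainly to blood cells, where they bind DNA with the ETS factor PU.1. Since several of these proteins are switched on by phosphorylation, a transcript level is not a measure of their activity. The series title concerns the translation of interferon-associated genes, whereas the values here are RNA levels.

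The sequences before the start sites are given for 4 of the genes, because Irf1, Irf2 and Irf8 carry matches to the sites through which interferons and IRFs act, and Irf9 is the member with the smallest unadjusted p between genotypes. Each is the 250 bases before the outermost RefSeq start on GRCm38.p6, the assembly of mm10, on the plus strand. They are chr11:53769764-53770013 for Irf1, chr8:46739495-46739744 for Irf2, chr8:120736108-120736357 for Irf8 and chr14:55603735-55603984 for Irf9. Capitals mark matches to the motifs described after the sequences.
Irf1: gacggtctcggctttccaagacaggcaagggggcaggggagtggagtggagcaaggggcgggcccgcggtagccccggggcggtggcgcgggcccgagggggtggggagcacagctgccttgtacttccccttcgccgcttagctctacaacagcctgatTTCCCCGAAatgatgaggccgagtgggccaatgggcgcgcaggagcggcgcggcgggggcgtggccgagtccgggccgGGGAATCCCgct
Irf2: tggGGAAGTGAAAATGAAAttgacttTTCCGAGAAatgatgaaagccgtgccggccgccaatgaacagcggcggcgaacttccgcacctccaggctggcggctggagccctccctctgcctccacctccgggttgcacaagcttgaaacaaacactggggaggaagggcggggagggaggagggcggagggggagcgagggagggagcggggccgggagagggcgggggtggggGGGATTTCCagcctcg
Irf8: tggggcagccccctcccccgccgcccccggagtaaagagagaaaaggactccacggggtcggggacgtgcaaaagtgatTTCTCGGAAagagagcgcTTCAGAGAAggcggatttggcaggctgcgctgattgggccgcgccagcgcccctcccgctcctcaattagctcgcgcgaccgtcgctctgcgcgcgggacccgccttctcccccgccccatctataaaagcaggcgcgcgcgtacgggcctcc
Irf9: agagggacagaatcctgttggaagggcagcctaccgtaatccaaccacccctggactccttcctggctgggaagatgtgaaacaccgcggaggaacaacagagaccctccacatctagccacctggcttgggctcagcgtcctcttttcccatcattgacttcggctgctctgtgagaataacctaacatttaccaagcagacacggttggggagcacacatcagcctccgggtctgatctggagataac

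In all 4 motifs were searched on both strands of the 300-base windows that RefSeq's table gives for the genes, 250 bases before and 50 after each start. The 8 members had 11 windows, with 2 each for Irf1, Irf8 and Irf9. The shares given below are of windows, so they are not like for like with counts of members. The interferon-stimulated response element core (searched as AAANNGAAA) was in the window of 1 member, Irf2, against 10.6% of 32851 windows of all genes. Its match, AAAATGAAA, ran from base -240 to -232, and a match to the ETS-IRF composite element (GGAANNGAA, 8.24% of windows), GGAAGTGAA, ran from -247 to -239 and overlapped it. The gamma-activated site (TTCNNNGAA, 8.3% of windows), a type of site through which interferon gamma acts, was in the windows of 3 members. It read TTCCCCGAA from -90 to -82 in Irf1, TTCCGAGAA from -224 to -216 in Irf2, and TTCTCGGAA from -171 to -163 and TTCAGAGAA from -153 to -145 in Irf8. A loose NF-kB-type pattern (GGGANNNCC, 18.6% of windows) was in the windows of 6 members, Irf1, Irf2, Irf3, Irf4, Irf5 and Irf8, and read GGGAATCCC from -12 to -4 in Irf1 and GGGATTTCC from -16 to -8 in Irf2. Irf7 and Irf9 had no match to any motif in their windows, which says only that these letters are not there. A match is a feature of the sequence and does not show that a factor binds it.

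Per length of exon, Irf5 was the most abundant of the 8 transcripts and Irf4 the least. Levels between genes are given as CPM (counts scaled to a library size of 1e6) per kilobase of annotated exon, averaged over the 6 libraries. Irf5 stood at 76.4 CPM per kilobase and Irf8 at 39.6, and together they made up between 61.7% and 66.2% of the summed level of the 8 genes in every library. Irf1 followed at 18.9, Irf2 at 14.6, Irf3 at 11.7, Irf9 at 10.1, Irf7 at 9.08 and Irf4 at 2.37. Irf3 and Irf9 overlapped in their range over libraries, and so did Irf9 and Irf7, so that their order is not resolved, whereas the other neighbours in this order did not overlap. With the longest annotated transcript as the length, the order was the same, with Irf5 at 99.1 and Irf8 at 80.6. Overlap between neighbours was read only with all annotated exon as the length, and so were the ranks that follow. Among the 885 tested genes that the deposited table assigns to a transcription factor family and that have an annotated length, Irf5 ranked 15 and Irf8 ranked 27 in level per kilobase, against 525 for Irf4. The counts behind these values ran from 383 (Irf4 in WT 1) to 11360 (Irf8 in KO 1) per gene and library.

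**Figure D1:**
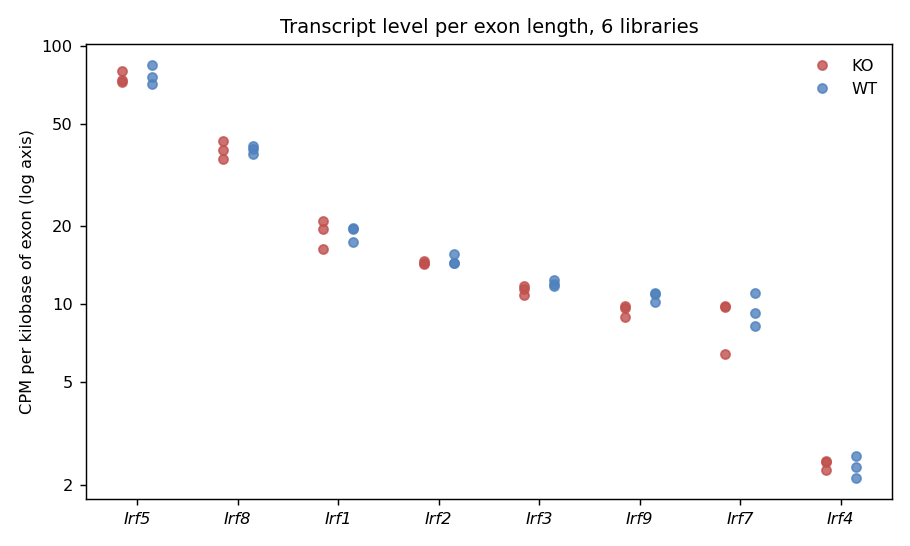
Level of each gene in CPM per kilobase of annotated exon (log axis), ordered by mean, with 1 point per library, KO on the left and WT on the right of each gene. Irf5 and Irf8 lie above the other genes and Irf4 lies lowest, at between 2.12 and 2.59, in both genotypes.

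Trmt61a, read as a check of the genotype labels, had 0.530, 0.755 and 0.539 CPM in KO libraries, against 4.96, 3.89 and 5.06 CPM in WT libraries (edgeR adjusted p = 0.00219). Libraries held between 37021855 and 41033179 gene counts. The macrophage markers Adgre1, Csf1r and Cd68 were abundant in every library, with Csf1r between 3930 and 5116 CPM in KO and between 4112 and 4929 CPM in WT. Of the 7 macrophage markers 1 was called, Lyz2, which carries the Cre insertion and had between 8488 and 10769 CPM in KO and between 17037 and 21194 CPM in WT.

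None of the 8 genes differed between KO and WT macrophages at an adjusted p under 0.05 (edgeR quasi-likelihood test, Benjamini-Hochberg over 12605 genes), where 0.0317% of all tested genes did. DESeq2 and limma voom also called 0 of the 8. At an unadjusted p under 0.05 edgeR gave 1 of them, Irf9, where 3.10% of tested genes had such a p. Log2 fold changes, KO minus WT, ran from -0.18 (Irf9) to 0.03 (Irf4), with 5 genes below 0 and 3 above, and a median of -0.03, against 8.37e-05 for all tested genes, of which 6297 lay below 0. The KO and WT libraries did not overlap for 2 genes, Irf3 and Irf9, both lower in KO, where 8.65% of all tested genes showed no overlap. The 95% interval lay within a 1.5-fold change in either direction for all 8 genes, against 72.4% of tested genes, and within 1.25-fold for 6, the exceptions being Irf7 and Irf9, against 51.0% of tested genes. These intervals limit how large a change in transcript level could have gone unseen between these libraries. Like the p-values, they rest on variation that may be technical, in which case they do not bound a difference between mice. A p that misses the threshold does not show that the levels were equal.

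**Figure D2:**
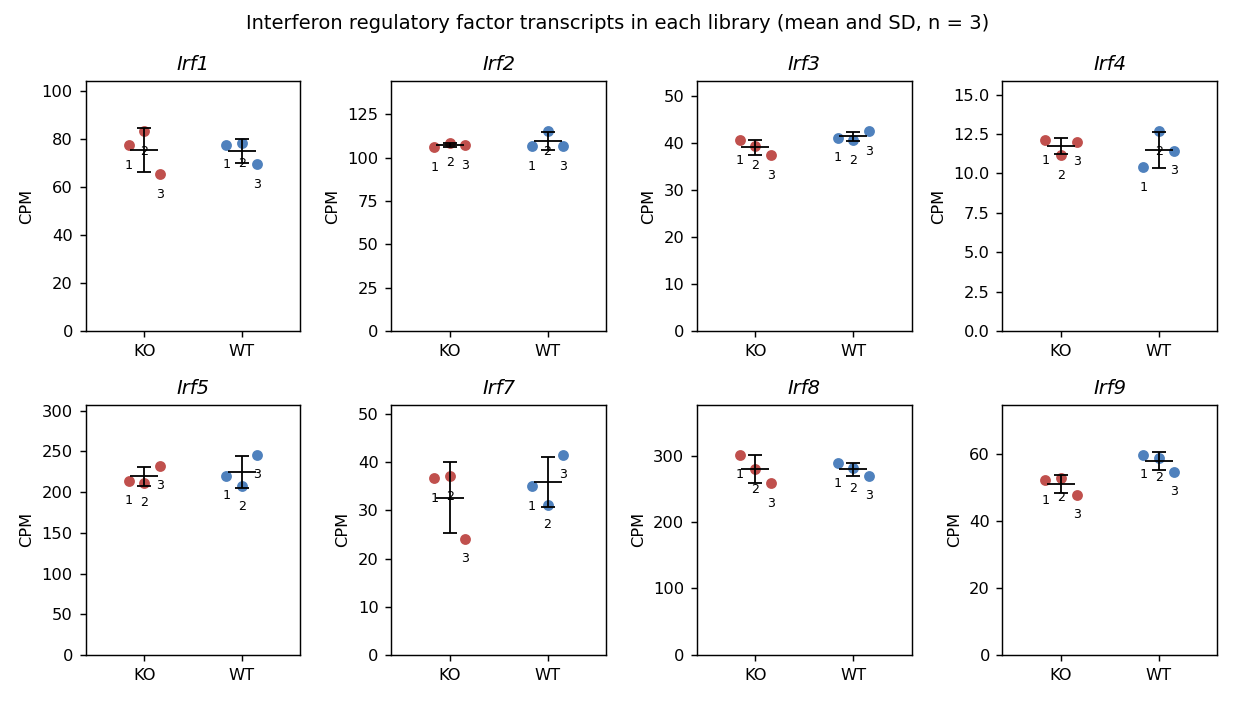
CPM of the 8 genes in each library, numbered by replicate, with mean and SD (n = 3) in black, KO on the left and WT on the right of each panel and each vertical axis starting at 0. The 3 KO libraries of Irf9, between 47.8 and 52.9 CPM, lie below the 3 WT libraries, between 54.7 and 59.7, and Irf7 is lowest in KO 3 and highest in WT 3.

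Irf9 (Entrez Gene 16391, chromosome 14, 55603985 to 55610030), through which type I interferon switches on its target genes, had the smallest p of the family. It stood at 52.1, 52.9 and 47.8 CPM in KO 1, 2 and 3, against 59.7, 58.9 and 54.7 CPM in WT 1, 2 and 3. Every KO library was below every WT library, with KO 2 and WT 3 closest to each other. The KO mean was 51.0 ± 2.74 CPM and the WT mean 57.8 ± 2.70 CPM (SD, n = 3 each), so that KO held 88.2% of the WT level. Its log2 fold change of -0.18 had a standard error of 0.07 and a 95% interval from -0.33 to -0.03 (edgeR unadjusted p = 0.024, adjusted p = 0.999949). Its unadjusted p was the 173rd smallest of all 12605 genes and the 11th smallest of 886 transcription factor genes. Over 16 alternatives the log2 fold change stayed between -0.22 and -0.14 and the adjusted p between 0.910 and 0.999965. The unadjusted edgeR p lay above 0.05 without KO 3 (0.0961), without WT 1 (0.0843) and without WT 2 (0.0601), and when KO 1 and WT 2 (0.0534) or KO 3 and WT 3 (0.0531) were left out together. The gene overlaps Rnf31 on the same strand, and Rnf31, which encodes a ubiquitin ligase subunit, had 42.0, 46.2 and 40.6 CPM in KO libraries, against 43.9, 39.6 and 42.9 CPM in WT libraries.

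Irf3 (Entrez Gene 54131, chromosome 7, 44997648 to 45002848), the constitutively present member that sensors of viral nucleic acid activate first, had 40.6, 39.4 and 37.4 CPM in KO libraries, against 41.2, 40.7 and 42.6 CPM in WT libraries. The groups did not overlap, but KO 1 and WT 2 differed by less than 0.1 CPM. The log2 fold change was -0.08 with a 95% interval from -0.23 to 0.07 (edgeR unadjusted p = 0.245). Irf3 overlaps Bcl2l12 on the opposite strand, whose reads cannot be kept apart here because the strand setting is unknown. Bcl2l12 was the less abundant of the pair in CPM, between 7.85 and 9.86 in KO and between 6.93 and 10.03 in WT.

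Irf7 (Entrez Gene 54123, chromosome 7, 141263183 to 141266499), which amplifies the type I interferon response and is itself induced by interferon, varied more between libraries than any other member. It had 36.7, 37.1 and 24.2 CPM in KO 1, 2 and 3, against 35.0, 31.2 and 41.6 CPM in WT 1, 2 and 3. The groups overlapped, since KO 1 and KO 2 lay between the WT values and only KO 3 lay below them. The highest library stood 1.72-fold above the lowest, against 1.09-fold to 1.28-fold for the other 7 genes. Its biological coefficient of variation, the spread between libraries of a genotype beyond counting error, was 0.159, above that of 97.0% of the 1994 genes within 0.5 log2 units of its level. Its log2 fold change, -0.14, came with a 95% interval from -0.58 to 0.30 (edgeR unadjusted p = 0.476). KO 3 decided its sign: without that library it was 0.04 (edgeR adjusted p = 0.99984, within 0.954 to 0.999965 over the alternatives). With single libraries left out it ran from -0.24 (without KO 2) to that value. With pairs picked after seeing the data left out, it was -0.32 without KO 1 and WT 2 and 0.16 without KO 3 and WT 3, of which KO 3 and WT 3 were picked on the values of Irf7. Irf7 overlaps Phrf1 on the opposite strand, which had between 72.3 and 75.8 CPM in KO and between 76.2 and 80.8 CPM in WT.

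Irf5 (Entrez Gene 27056, chromosome 6, 29526130 to 29541869), the member that drives inflammatory cytokine genes such as Il12b and Il6, had 214.1, 211.7 and 232.7 CPM in KO libraries, against 220.5, 207.2 and 246.0 CPM in WT libraries. The genotypes overlapped, and the third library was the highest in each. The log2 fold change was -0.03 with a 95% interval from -0.19 to 0.12 (edgeR unadjusted p = 0.651). Irf5 overlaps Tnpo3, a nuclear import gene on the opposite strand with between 95.8 and 99.8 CPM in KO and between 90.1 and 100.7 CPM in WT.

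Irf1 (Entrez Gene 16362, chromosome 11, 53770014 to 53778374), which interferon gamma induces and which carries the TTCCCCGAA site printed above, had 77.4, 83.3 and 65.3 CPM in KO libraries, against 77.5, 78.2 and 69.4 CPM in WT libraries. The highest and the lowest value were both in KO, and the log2 fold change was 0.01 with a 95% interval from -0.19 to 0.20 (edgeR unadjusted p = 0.951). Its coefficient of variation of 0.0857 was above that of 87.2% of 1852 genes of a like level. Irf2 (Entrez Gene 16363, chromosome 8, 46739745 to 46847458), the antagonist of Irf1 at shared sites, was the steadiest member. It had 106.1, 108.6 and 107.0 CPM in KO libraries, against 106.4, 115.3 and 106.4 CPM in WT libraries, with a coefficient of variation of 0.0614, which was above that of 16.4% of 1501 genes of a like level. All libraries but WT 2 lay between 106.1 and 108.6 CPM. The log2 fold change of Irf2 was -0.03 with a 95% interval from -0.15 to 0.10 (edgeR unadjusted p = 0.623).

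Irf8 (Entrez Gene 15900, chromosome 8, 120736358 to 120756694), the factor that directs myeloid progenitors towards monocytes and macrophages, had 301.1, 279.6 and 258.3 CPM in KO libraries, against 288.3, 280.8 and 269.4 CPM in WT libraries. The WT values lay within the range of the KO values. The KO mean was 279.7 ± 21.4 CPM and the WT mean 279.5 ± 9.54 CPM (SD, n = 3 each), and the log2 fold change, 9.44e-04, had a 95% interval from -0.14 to 0.14 (edgeR unadjusted p = 0.989). Irf4 (Entrez Gene 16364, chromosome 13, 30749233 to 30766981), its closest relative, which takes part in alternative activation of macrophages and in plasma cell development, had 12.1, 11.2 and 12.0 CPM in KO libraries, against 10.4, 12.7 and 11.4 CPM in WT libraries. The KO values lay within the range of the WT values. The log2 fold change of Irf4 was 0.03 with a 95% interval from -0.24 to 0.30 (edgeR unadjusted p = 0.811), and no annotated gene overlaps it. Irf1, Irf2 and Irf8 overlap annotated genes that have no counts of their own here. These are Gm20388 on the same strand as Irf8, and on the opposite strand Gm17334 for Irf1 and Gm45479, Gm31172 and Gm45481 for Irf2.

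**Figure D3:**
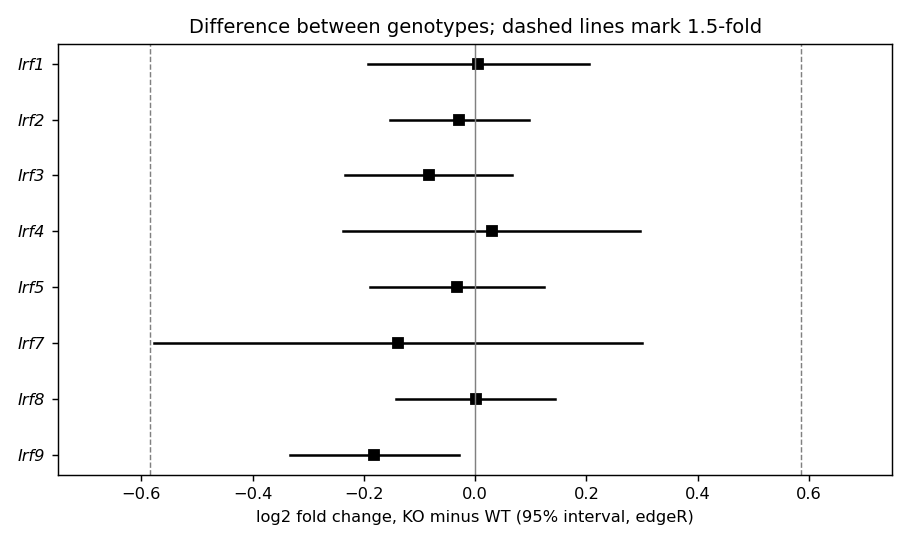
Log2 fold change of each gene, KO minus WT, with its 95% interval from edgeR, and dashed lines at a 1.5-fold change. Every interval lies inside the dashed lines, that of Irf7 is the widest, from -0.58 to 0.30, and that of Irf9, from -0.33 to -0.03, is the one that leaves out 0.

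Since some members act against each other at the same sites or partners, the ratio between members within a library was compared for 4 pairs. These are log2 ratios of CPM, not corrected for length, so only their difference between genotypes is read. The ratio of Irf1 to Irf2 had a mean of -0.52 ± 0.17 in KO and -0.55 ± 0.08 in WT (SD, n = 3), a difference of 0.03. That of Irf7 to Irf3, the kinase-activated pair, was -0.29 ± 0.30 in KO and -0.22 ± 0.17 in WT, a difference of -0.07. That of Irf4 to Irf8, the PU.1 partners, was -4.57 ± 0.12 in KO and -4.61 ± 0.17 in WT, a difference of 0.04. That of Irf5 to Irf4, which compete for the adaptor Myd88, was 4.22 ± 0.07 in KO and 4.29 ± 0.22 in WT, a difference of -0.07. Each difference was smaller than the spread between libraries of a genotype, and the exact two-sided permutation p ran from 0.6 to 0.9, or 0.9 for each pair after Benjamini-Hochberg adjustment over the 4. With 3 against 3 libraries this exact test cannot give a p below 0.1, so it could not have reached the threshold. The ratio of Irf5 to Irf4 rested on WT 2, without which the difference was -0.19, with both remaining WT libraries above every KO library.

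Of 131 tested genes on 10 lists of IRF partners, upstream signalling, regulators and targets, 0 passed by edgeR, by DESeq2 or by limma voom with adjustment over all genes, and edgeR gave 4 an unadjusted p under 0.05, which is 3.05% of them against the 3.10% of all tested genes. Among 21 DNA-binding partners and cofactors the median log2 fold change was -0.03, with 15 below 0. Those with the smallest p included Rela, an NF-kB subunit (-0.14), Cebpb, a myeloid bZIP factor (-0.14), and Ikzf3, a lymphoid zinc finger factor averaging 0.619 CPM in KO cells and 1.02 CPM in WT cells (-0.71, standard error 0.54). Among 18 receptors and kinases the median was -0.02, with 12 below 0. Ifngr2, which codes for a receptor chain for interferon gamma, averaged 179.6 ± 4.38 CPM in KO cells and 194.6 ± 4.80 CPM in WT cells (SD, n = 3 each; log2 fold change -0.12), and Ikbkb, Ikbke and Irak4, which encode kinases of the NF-kB and IRF pathways, had -0.11, -0.10 and -0.07. Ifngr2 and Ikbkb were among the 10 list genes without overlap between genotypes, 7.63% of the 131, against 8.65% of all tested genes.

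Among 18 sensors and adaptors the median log2 fold change was -0.02, with 13 below 0. Tlr3, the endosomal sensor of double-stranded RNA, had -0.25, Mavs, the mitochondrial adaptor that leads to Irf3, -0.09, Zbp1 -0.15 and Traf3, an adaptor upstream of Irf3 and Irf7, -0.12. Among 20 tested regulators of IRF activity and turnover the median was -0.01, with 11 below 0. Mul1, a mitochondrial ubiquitin ligase, averaged 28.1 ± 0.126 CPM in KO cells and 24.3 ± 1.59 CPM in WT cells (SD, n = 3 each), a log2 fold change of 0.21 with an unadjusted edgeR p of 0.0234. Cish, a feedback inhibitor of cytokine receptors, averaged 2.15 ± 0.598 CPM in KO cells and 3.36 ± 0.797 CPM in WT cells (SD, n = 3 each), a log2 fold change of -0.65 with an unadjusted edgeR p of 0.0479. Ptpn6, a phosphatase gene, had -0.12 and Socs3, another feedback inhibitor, -0.33.

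The genes that IRFs are known to control were grouped by the member that acts on them. Of 18 tested targets of Irf9, 16 lay below 0, with a median log2 fold change of -0.09. That median depended on single libraries: it was -0.01 without KO 3, -0.02 without WT 3, -0.16 without KO 1 and -0.15 without WT 1. It was 0.07 without KO 3 and WT 3 and -0.19 without KO 1 and WT 2. Those with the smallest p included Dhx58, an RNA sensor gene (0.16), Xaf1 (-0.16) and Ifih1, another RNA sensor gene (-0.11). Of 9 tested targets of Irf3 and Irf7, 7 lay below 0, with a median of -0.09, which was 0.05 without KO 3, -0.21 without KO 1, -0.15 without WT 1 and -0.06 without WT 2. They included Ccl5, a chemokine gene averaging 3.99 ± 0.726 CPM in KO cells and 2.998 ± 1.11 CPM in WT cells (SD, n = 3 each; log2 fold change 0.41), Ccl4 (-0.11), Ifit3 (-0.13) and Rsad2 (-0.13). Ifnb1, the interferon beta gene, had 9 counts in the 6 libraries together and was not tested.

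Of 15 tested targets of Irf1, 8 lay below 0 and the median of the log2 fold changes was -0.0038. Tap1, a peptide transporter of antigen presentation, averaged 63.7 ± 3.71 CPM in KO cells and 58.4 ± 3.18 CPM in WT cells (SD, n = 3 each; log2 fold change 0.13). Psmb8, an immunoproteasome subunit, had 0.09, Cd274, which encodes PD-L1, 0.07, and Il12a -1.19 with a standard error of 0.71 with means of 0.203 CPM in KO cells and 0.468 CPM in WT cells. Only 5 of 9 targets of Irf5 passed the count filter. Those not tested were Il6, Il12b, Il23a and Nos2, with 15, 3, 2 and 5 counts in the 6 libraries together. Of the 5 tested, 4 lay below 0, with a median of -0.34, or -0.10 without WT 3. Il1b averaged 2.95 ± 0.163 CPM in KO cells and 3.98 ± 0.580 CPM in WT cells (SD, n = 3 each; log2 fold change -0.44). Of the others named, Il12a had the -1.19 given above, Ccl5 0.41 and Il10 -0.34.

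Of 9 tested targets of Irf4, 4 lay below 0, with a median log2 fold change of 0.03. Il10 had the -0.34 given above, Ch25h, a cholesterol hydroxylase gene, 0.69 with a standard error of 0.61, Kdm6b, a histone demethylase gene, -0.08 and Ccl22 -0.47 with a standard error of 0.61. Of 14 tested targets of Irf8, 8 lay below 0, with a median of -0.01. Il18, a cytokine gene, averaged 7.68 ± 0.803 CPM in KO cells and 10.1 ± 1.76 CPM in WT cells (SD, n = 3 each), a log2 fold change of -0.39 with an unadjusted edgeR p of 0.034. Cst3, a protease inhibitor gene, had 0.09, Nf1, a Ras inhibitor gene, 0.09 and Naip5, a sensor of flagellin, -0.06. The medians of the targets of Irf1, Irf4 and Irf8, of the receptors and kinases and of the regulators changed sign when single libraries were left out. The lists share genes, and several of their members answer to more than 1 IRF.

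The spread of Irf7 between libraries was set beside that of the lists. Relative to the mean of the 6 libraries, on the log2 scale, Irf7 stood at 0.12, 0.13 and -0.48 in KO 1, 2 and 3, against 0.05, -0.12 and 0.30 in WT 1, 2 and 3. The mean of the targets of Irf9, with Irf7 itself left out, stood at 0.09, 0.00 and -0.20 in KO, against -0.07, -0.02 and 0.20 in WT. KO 3 was the lowest and WT 3 the highest library in both, and also in the targets of Irf1, at -0.19 and 0.16, and in the sensors and adaptors, at -0.07 and 0.07. The mean of the targets of Irf3 and Irf7 was also lowest in KO 3, at -0.23, but highest in KO 1, at 0.15. Irf1, Irf3, Irf8 and Irf9 were lowest in KO 3 as well, at -0.20, -0.11, -0.11 and -0.18, whereas Irf5 stood there at 0.07 and Irf4 at 0.05. The targets of Irf8 stayed between -0.04 and 0.08 in all libraries. The remaining lists did not share 1 pattern. Each gene has equal weight in these means, so genes of low count, such as Il12a, Ikzf3 and Spib, can move them. Targets of Irf4 were lowest in KO 1, at -0.40, and highest in KO 3, at 0.27, which leans on such genes. Arg1, Ccl22 and Ch25h had 0.345, 0.292 and 0.239 CPM in KO 1, against 0.955, 1.20 and 1.05 CPM in KO 3. Mrc1, Il10 and Cd209a were instead lower in KO 3 than in KO 1. Targets of Irf5 were lowest in WT 2, at -0.365, and the DNA-binding partners in KO 1, at -0.154, and both were highest in WT 3, at 0.565 and 0.145. The receptors and kinases and the regulators were lowest in KO 3, at -0.054 and -0.13, and highest in WT 2, at 0.048 and 0.046.

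**Figure D4:**
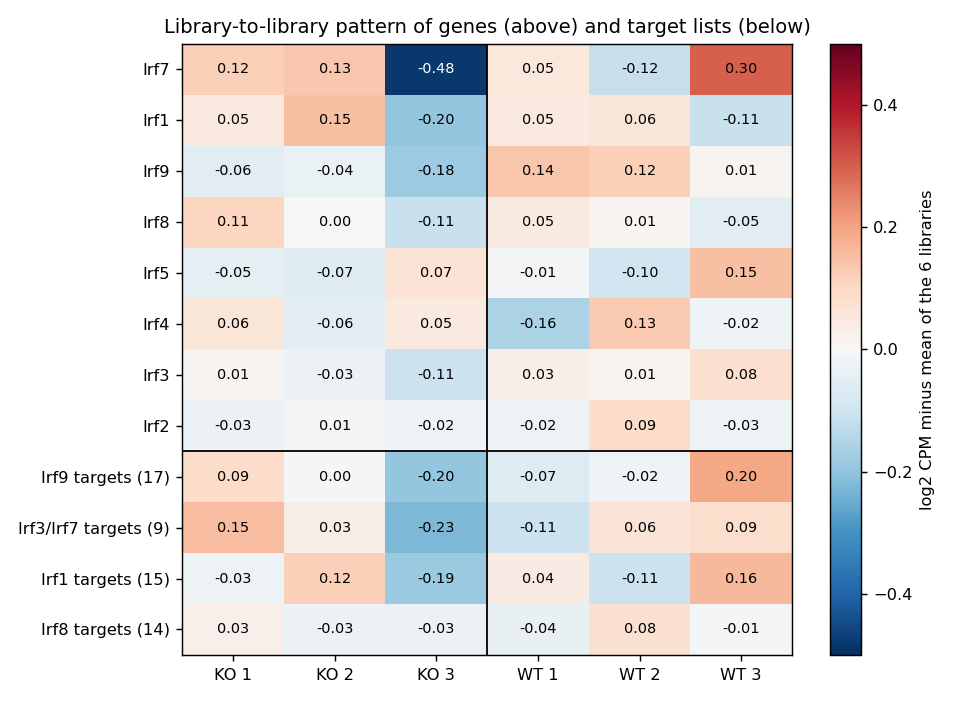
Log2 CPM relative to the mean of the 6 libraries, for the 8 genes (above the line) and the mean of 4 target lists with their number of tested genes (below the line), with KO libraries left of WT libraries. Irf7 and the targets of Irf9 and of Irf1 are lowest in KO 3 and highest in WT 3, where the mean of the Irf1 targets leans on genes of low count such as Il12a.

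The genes whose pattern over the 6 libraries was most like that of a member were found by the root mean square difference of log2 CPM relative to the mean, among 8442 other genes that averaged 10 CPM or more. For Irf7 these were Slc16a13, a transporter gene (0.096), and Oas3, an interferon-induced sensor of double-stranded RNA (0.126), against a root mean square of 0.249 for Irf7 itself. For Irf9 they were Zbtb40 (0.028) and Cwc15 (0.029), against 0.109 for Irf9 itself. For Irf1 they were Nt5dc2 (0.025) and Ptms (0.030), for Irf8 Wdtc1 (0.008) and Cyb5a (0.010), and for Irf5 Acsl5 (0.014) and Cdk19 (0.020). For Irf2 they were Crnkl1 and Smad2 (0.012 each), for Irf3 Tlk1 (0.015) and Sik2 (0.018), and for Irf4 Mib1 (0.022) and Desi2 (0.025). With 6 libraries and so many genes, close matches to a nearly flat profile are common, and the likeness describes these libraries only.

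Irf4, Irf7 and Irf8 are also expressed in other blood cells, so markers of those cells were read beside them. In bulk RNA, fewer cells of a type and less RNA per cell cannot be told apart. Summed over the 7 B cell markers, libraries had between 9.15 and 15.03 CPM in KO and between 8.97 and 16.5 CPM in WT. The 6 dendritic cell markers in the table summed to between 133.8 and 276.2 CPM in KO and between 133.8 and 243.4 CPM in WT, almost all from Itgax, which macrophages share, while Flt3 stayed at or under 0.553 CPM. Of the 6 plasmacytoid dendritic cell markers, Siglech lay between 1.20 and 1.31 CPM in KO and between 1.30 and 1.43 CPM in WT, and the sum lay between 222.4 and 259.7 CPM in KO and between 225.3 and 244.8 CPM in WT. That sum came mostly from Tcf4 and Bst2, while Ccr9 stayed at or under 1.02 CPM. The 8 neutrophil markers summed to between 1607 and 2571 CPM in KO and between 1617 and 2941 CPM in WT, with KO 1 and WT 2 lowest in their genotype and WT 3 the highest of all libraries. The 6 T and NK cell markers in the table summed to between 0.557 and 1.16 CPM in KO and between 1.36 and 1.98 CPM in WT, without overlap and mostly from Nkg7, while Cd3e stayed at or under 0.108 CPM. Nkg7 was the only 1 of the 6 with enough counts to be tested, and 8.65% of all tested genes showed no overlap. The markers of mast cells and basophils summed to at most 7.18 CPM in KO and 12.1 CPM in WT, and those of fibroblasts and stroma to between 93.7 and 225.9 CPM in KO and between 92.1 and 146.8 CPM in WT. No marker of these 7 classes passed between genotypes, and their part in the levels of the IRFs was not tested.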

How the data were processed

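The labels' protocols name TRIzol for the extraction of total RNA and the VAHTS Universal V6 kit for the libraries. What the authors deposited is a single table of raw counts, with a column for each of 6 libraries. Per the submitters' processing notes, fastp, HISAT2, HTSeq and build mm10 were used; their versions, the annotation release and the strand setting are not known, so reads of overlapping genes are unresolved. Titles of the samples gave genotype and replicate number.

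All genes were fitted together in edgeR 4.0.16 (R 4.3.3) with TMM factors, filterByExpr (minimum count 10), legacy-mode quasi-likelihood fits with robust estimation, and Benjamini-Hochberg adjustment over 12605 genes (threshold 0.05). Standard errors divide the log2 fold change by the root of F, and intervals cover 95%. CPM uses TMM-scaled library sizes; 3 counts correspond to between 0.0730 and 0.0813 CPM, a floor that covers counting error only. Exon lengths come from GENCODE M21, coordinates and promoter sequences from RefSeq GRCm38.p6, matched by Entrez Gene ID and symbol for all 8 genes. The motifs were first searched with 1 more letter each for 3 of them and were then shortened; this moved the shares of windows and gave the NF-kB-type form matches in more members. Replicates differed beyond sampling noise (chi-square of at least 11.4 per degree of freedom), so each library counted once. The edgeR steps were run on counts simulated with the spread fitted here and planted changes of 1.5-fold or more. That is larger than the estimated change of any member, so the run does not bear on changes of their size. Alternatives used DESeq2 1.42.0, limma 3.58.1 (voom), other normalizations and filters, a replicate block, and leaving out libraries.

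The members and lists were chosen with earlier results of these data known. Named genes were the 8 members, Trmt61a, up to 4 genes with the smallest p of each list (some are not reported here), and the 2 genes most like each member; any other gene was picked with its values in view.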

Additional observations from a re-analysis of the deposited data

How the results depend on the processing

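Over 16 alternatives, 0 of the 8 genes and 0 of the list genes passed in any, and the smallest adjusted p of a member was 0.910 (Irf9 without KO 1). The number of all genes called was 4, against 16 in DESeq2 and 8 with the replicate block. Same-numbered libraries did not deviate together in every pair (correlations of 0.03, -0.13 and 0.25). Over all pairs of a KO and a WT library, the correlation was highest for KO 1 with WT 2 (0.301) and lowest for KO 1 with WT 3 (-0.325). With 3 libraries per genotype these values cannot show if the numbers pair the libraries, and the main fit left the numbers out. Irf3 and Irf9 kept their sign in all 16. In 17 of 128 refits the sign of another member turned, always of a fold change that did not pass. Irf1 had -2.49e-05 with upper quartile factors, and -0.0149 without KO 1, -0.0714 without KO 2 and -0.0469 without WT 3. Irf2 ran from -0.0477 (without WT 1) to 0.00773 (without WT 2) and had 0.0183 without KO 1 and WT 2 together, which was chosen after seeing the data. Irf4 had -0.0383 without WT 1, Irf5 ran from -0.0906 (without WT 2) to 0.0387 (without WT 3), and Irf7 from -0.24 (without KO 2) to 0.0379 (without KO 3), with -0.324 without KO 1 and WT 2 together and 0.158 without KO 3 and WT 3 together, a pair picked after seeing the values of Irf7. Irf8 had -0.00486 with upper quartile factors, -0.00167 with at least 1 CPM in 3 libraries, -0.00137 in limma voom, -0.00129 with the replicate block, and -0.0522 without KO 1 and WT 2 together; leaving out each library gave it values from -0.0559 to 0.0556. When each library was left out, the log2 ratio differences moved by less than the pooled SD of the full set, and ran from -0.04 to 0.13 for Irf1 to Irf2, -0.17 to 0.10 for Irf7 to Irf3, -0.06 to 0.11 for Irf4 to Irf8 and -0.19 to 0.00 for Irf5 to Irf4. Of 160 list medians 157 moved by less than the spread between libraries, the exceptions being targets of Irf8 without KO 1 (-0.07) and without WT 2 (0.05), and targets of Irf9 without KO 3 and WT 3 (0.07). The causes were not tested.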
